A study of Arabidopsis thaliana with 28 samples.

Results

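The drd3-3 mutant was compared with nrpe1 in the 4 libraries that carry the same tags, which are drd3-3 of gp5, drd3-3 of gp6, nrpe1 of gp5 and nrpe1 of gp6, out of 24 libraries of this kind from 11 genotypes. The libraries were chosen by genotype and tag, and the other 3 nrpe1 libraries (no tag, gp3 and gp4) gave the spread. The assay, IPARE, sequences the 5′ ends of RNA recovered with an antibody against NRPE1. All plants were Arabidopsis thaliana seedlings of the Columbia ecotype, 18 days old, and no transgene or treatment is named in the labels. Col-0 is the wild type. The meaning of the tags is not stated in the labels, and nothing there says whether replicates were separate plantings, so p-values measure the spread between libraries, which may be partly technical.

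RNA polymerase V (Pol V) is a plant polymerase whose non-coding transcripts act as a scaffold on which ARGONAUTE proteins loaded with small RNAs recruit DNA methylation, a pathway called RNA-directed DNA methylation (RdDM). NRPE1 is its largest subunit. RefSeq's gene table lists DRD3 and DMS5 as further names of the NRPE1 gene, AT2G40030, so drd3-3, dms5-1 and nrpe1 are by name alleles of the same gene. The labels used here give neither the position of each mutation nor the level of NRPE1 protein.

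The authors divided the genome into 794311 windows of 200 bp (6 differ in length) that each share 50 bp with the next, and listed 158314 of them as RdDM windows, 204367 as transcribed by Pol V outside RdDM (non-RdDM) and 431630 as not transcribed by Pol V. The last class is called background here. The drd3-3 libraries held 785943 counts (gp5) and 882259 counts (gp6), the nrpe1 libraries 840847 to 2948073, and Col-0 of the same tags 1736607 and 1098651. Ribosomal DNA windows took 61.0% and 59.3% of the drd3-3 counts and 49.6% to 63.2% of the nrpe1 counts. The library of drd3-3, gp5, kept 306373 counts outside ribosomal DNA, the fewest among drd3-3 and nrpe1, and shares called "at equal depth" were computed after thinning every deeper library to that number. The NRPE1 gene itself had 0 and 5 counts in drd3-3, 7 and 0 in nrpe1 of the same tags and 5 and 2 in Col-0, so these counts check no label. All 20 photosynthesis genes had counts in both drd3-3 libraries (summed 2671 and 2464 CPM, counts per 1000000 window counts, against 1036 to 3882 in nrpe1), and of 9 seed storage genes 9 and 8 were at 0.

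Signal at RdDM windows was left in drd3-3, and it was spread over many windows with few counts each. At equal depth, 16.7% of RdDM windows had at least 1 read in drd3-3 of gp5 and 15.3% in drd3-3 of gp6. In nrpe1 the shares were 2.67% (gp5), 3.24% (gp6), 4.90% (no tag), 2.50% (gp3) and 1.59% (gp4). Both drd3-3 libraries therefore lay above all 5 nrpe1 libraries, 6.28-fold over nrpe1 within gp5 and 4.71-fold within gp6. The log2 difference between the genotypes was 2.52 (SE 0.27; exact two-sided permutation test over 21 splits, n = 2 and 5, p = 0.0476, the smallest this design allows; 0.111 after Benjamini-Hochberg adjustment over 7 tests). The RdDM list was itself made with the nrpe1 libraries of no tag, gp3 and gp4, so their low values are not independent of it. This limit holds for every permutation test on listed windows against the 5 nrpe1 libraries. The ratios within gp5 and within gp6 use none of those libraries. Col-0 of gp5 and gp6 had reads in 37.7% and 33.3% of RdDM windows. The other allele in these tags, dms5-1, had them in 2.40% and 2.66%, within the range of nrpe1 (its gp5 library holds fewer counts and was not thinned). In these bulk seedling extracts, fewer cells with Pol V transcripts and fewer transcripts per cell cannot be told apart.

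**Figure D1:**
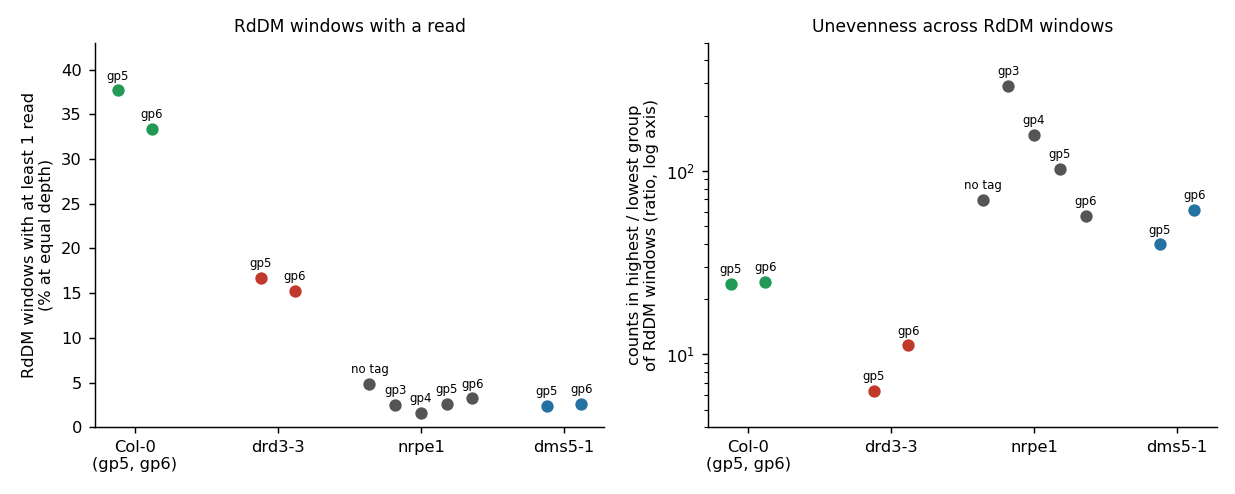
Left, the percentage of RdDM windows with at least 1 read at equal depth; right, counts in the highest of 4 groups of RdDM windows (ranked by Col-0 count outside gp5 and gp6) divided by counts in the lowest group, on a log axis. Each point is 1 library, labelled with its tag. The drd3-3 points lie at 16.7% and 15.3% on the left, between Col-0 and nrpe1, and at 6.35 and 11.2 on the right, under every other library shown.

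The share of all counts separated the genotypes less clearly than the share of windows. RdDM windows took 7.49% of window counts in drd3-3 of gp5 (95% Wilson interval 7.43 to 7.55, counting error only) and 6.69% in drd3-3 of gp6 (6.64 to 6.74). The nrpe1 libraries gave 5.52% (no tag), 6.14% (gp3), 3.18% (gp4), 2.85% (gp5) and 2.53% (gp6). Both drd3-3 values were above the 5 nrpe1 values, but the gp3 library of nrpe1 came near, and the mean log2 difference of 0.90 (SE 0.27) had an exact permutation p of 0.143 (adjusted 0.2). Scaled to the counts of background windows, RdDM counts were 0.258 and 0.212 per background count in drd3-3, against 0.216 (gp3), 0.135, 0.0942, 0.0817 and 0.0755 in nrpe1. The drd3-3 library of gp6 lay under the highest nrpe1 library on this scale (log2 difference 1.07, SE 0.31, exact p = 0.143). Within gp5 and gp6 the RdDM share in drd3-3 was 2.63-fold and 2.64-fold that of nrpe1, and RdDM counts per background count 3.16-fold and 2.81-fold. A set of 437 RdDM windows with at least 20 counts summed over the 3 other nrpe1 libraries is called background-prone here, and windows of the other classes are called so by the same rule. Since 3 of the 5 nrpe1 libraries chose these windows, leaving them out lowers nrpe1 by construction, and differences without them from all 5 nrpe1 libraries are given as values with no test. Without background-prone windows in either class the log2 difference was 2.99.

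Compared with Col-0 of the same tags, drd3-3 kept a minor part of the RdDM signal. After subtracting nrpe1, RdDM counts per background count came to 15.1% of the Col-0 level in gp5 and 17.5% in gp6, a value with no test. Without that subtraction, the log2 difference of drd3-3 from Col-0 of the same tag was -2.28 in gp5 and -2.01 in gp6. The log2 difference from all 6 Col-0 libraries, which include those of other tags and of no tag, was -2.75 (SE 0.29; exact two-sided permutation test over 28 splits, n = 2 and 6, p = 0.0357, the smallest this design allows; adjusted 0.111).

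At non-RdDM Pol V windows the direction of the difference between drd3-3 and all 5 nrpe1 libraries depended on the scale and on the windows counted. These windows took 3.39% and 3.45% of counts in drd3-3 and 2.21% to 4.97% in nrpe1, with the drd3-3 values inside that range (log2 difference 0.11, exact p = 0.762). At equal depth 6.71% and 5.84% of them had a read in drd3-3, against 4.79% to 7.47% in nrpe1 and 12.5% and 10.7% in Col-0. The log2 difference in share was -0.09 with the highest 1 in 1000 windows of each library capped (exact p = 0.333) and -0.39 without background-prone windows. Per background count the log2 difference was 0.27 (exact p = 0.381), and with windows capped it was 0.29, drd3-3 being higher, at the smallest p the design allows (exact p = 0.0476). Within gp5 and gp6, over all windows of the class, the share in drd3-3 was 1.53-fold and 1.31-fold that of nrpe1. Counts per background count were 1.77-fold and 1.35-fold. After subtracting nrpe1 of the same tag, these counts came to 18.2% and 18.3% of the Col-0 level, values with no test. Background windows had a read in 7.05% and 5.36% of cases in drd3-3 and 6.03% to 8.16% in nrpe1.

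Which RdDM windows kept reads in drd3-3 differed from Col-0. RdDM windows were ranked by their count summed over the 4 Col-0 libraries outside gp5 and gp6, and divided into 4 groups of equal size. In the lowest group 11.7% (gp5) and 6.55% (gp6) of windows had a read in drd3-3 at equal depth, against 10.7% and 9.05% in Col-0 of the same tags. In nrpe1 the lowest group gave 0.345% to 1.08%. In the highest group drd3-3 had reads in 22.6% and 31.8% of windows, against 4.56% to 13.8% in nrpe1 and 81.4% and 75.2% in Col-0. In the lowest group drd3-3 thus lay above Col-0 in gp5 and under it in gp6, and in the highest group it lay far under Col-0 in both.

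**Figure D2:**
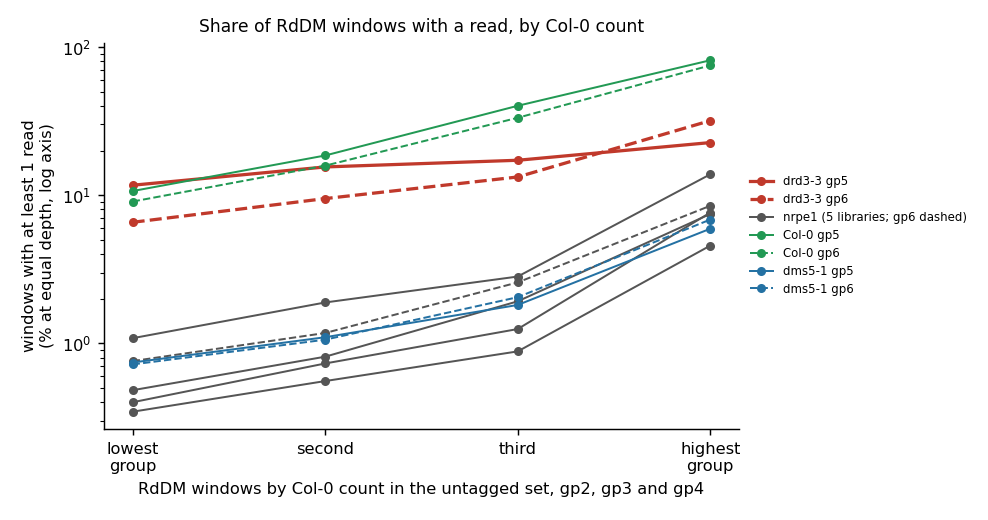
Share of RdDM windows with at least 1 read at equal depth (log axis) in 4 groups of windows ranked by Col-0 count, 1 line per library. In the lowest group the drd3-3 points (11.7% and 6.55%) lie on either side of those of Col-0 (10.7% and 9.05%), and in the highest group they lie at 22.6% and 31.8%, far under Col-0.

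The same flatness showed in counts. Counts in the highest group divided by counts in the lowest group gave 6.35 in drd3-3 of gp5 and 11.2 in drd3-3 of gp6. The 5 nrpe1 libraries gave 56.8 to 290 and the Col-0 libraries of gp5 and gp6 gave 24.1 and 24.9. Both drd3-3 values were lower than in all nrpe1 libraries (log2 difference -3.74, SE 0.59, exact permutation p = 0.0476, adjusted 0.111). Without background-prone windows the difference was smaller, at -1.56. Without background-prone windows, drd3-3 counts per background count in the lowest group were 62.0% (gp5) and 49.8% (gp6) of the Col-0 level, and in the highest group 9.25% and 15%. For nrpe1 of gp5 the corresponding levels were 1.89% and 1.26% of Col-0. The nrpe1 library of gp6 lay higher relative to Col-0. Over 121 chromosome bins of 1 Mb, also without background-prone windows, its median level was 2.41%, against 1.27% in gp5.

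Of the RdDM windows outside ribosomal DNA, 112190 (70.9%) had no read in either drd3-3 library and 7596 (4.80%) had a read in both. A read in gp5 alone was found in 18897 windows, with a median Col-0 count of 14, and a read in gp6 alone in 19527, with a median Col-0 count of 36. Of all RdDM windows 65.0% lay in 1 Mb bins rich in RdDM windows, against 68.9% of those read in gp5 alone, 50.6% of those read in gp6 alone and 61.2% of those read in both. In nrpe1 of the same tags 1223 RdDM windows (0.773%) had a read in both libraries, in dms5-1 972 (0.614%) and in Col-0 61387 (38.8%). Of the 7596 windows, 381 were background-prone, and 3600 had no read in any of the 5 nrpe1 libraries. Before thinning, nrpe1 had a read in 12.6% (no tag), 6.39% (gp3), 2.86% (gp4), 4.40% (gp5) and 3.28% (gp6) of all RdDM windows. Most of the class thus had no nrpe1 read either, and a lack of nrpe1 reads is not particular to windows read in drd3-3. These 3600 windows averaged 78.1% CG, 39.6% CHG and 11.6% CHH methylation in Col-0 leaves, against 73.4%, 34.6% and 10.2% over all RdDM windows. Their median count summed over the 4 Col-0 libraries outside gp5 and gp6 was 22, against 13 over the class. Only 34 RdDM windows had at least 5 reads in both drd3-3 libraries and none in any nrpe1 library, and 88.2% of these 34 lay in RdDM-rich bins, a set chosen by its counts and given with no test.

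DNA methylation levels are the authors' averages per window from whole-genome bisulfite sequencing of leaves of 3.5-week-old plants, so they come from another tissue and age than the RNA, and no depth is known for them. CG methylation is kept up by MET1 after each replication, CHG methylation by CMT3, and CHH methylation by CMT2 or by RdDM itself. The 2 drd3-3 libraries differed in how their reads followed CG methylation. In RdDM windows with under 10% CG methylation, 5.53% of 5768 windows had a read in drd3-3 of gp5, near the 3.89% of nrpe1 in that tag, whereas drd3-3 of gp6 had reads in 14.2% against 3.79%. In windows with at least 80% CG methylation the drd3-3 shares were 20.2% (gp5) and 15.8% (gp6), against 2.52% and 3.19% in nrpe1 and 34.5% and 30.9% in Col-0. The share in highly methylated windows was thus 3.66 times that in unmethylated windows in drd3-3 of gp5 and 1.11 times in drd3-3 of gp6. The nrpe1 ratios ran from 0.647 to 1.38, a range that holds the gp6 value but not the gp5 value (exact p = 0.238).

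By CHG level, the share in drd3-3 of gp5 was 7.42% of windows with under 5% CHG methylation and 23.3% of those with at least 50%, and in drd3-3 of gp6 the shares were 12% and 20.3%. The nrpe1 libraries stayed between 1.49% and 8.03% in both of these groups. By CHH level, windows under 1% CHH gave 7.38% and 10.2% in drd3-3 and windows of at least 20% CHH gave 26.2% and 35.8%. At the middle level of 5% to 10% CHH, where Col-0 had its lowest shares (26.0% and 22.6%), the drd3-3 shares were 16.0% and 12.2% and the level relative to Col-0 was highest, at 26.5% and 26.8% of Col-0 counts. In windows with at least 20% CHH it was 8.41% and 14.9%.

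**Figure D3:**
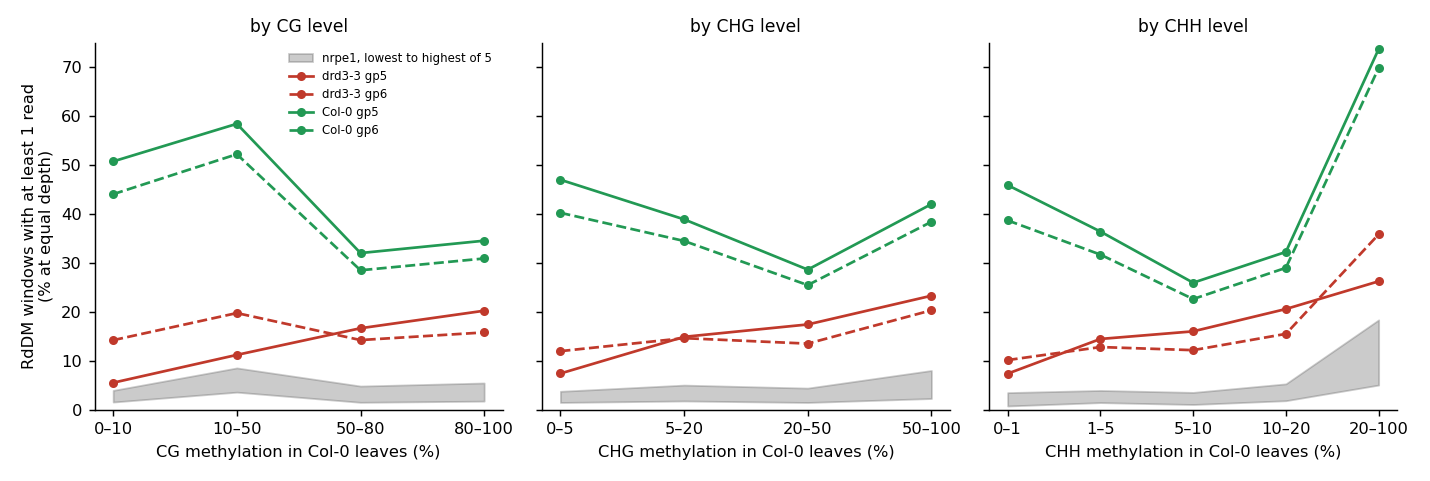
Share of RdDM windows with at least 1 read at equal depth, by CG, CHG and CHH methylation level in Col-0 leaves; lines are drd3-3 and Col-0 libraries (gp5 solid, gp6 dashed) and the grey band runs from the lowest to the highest of the 5 nrpe1 libraries. At 0 to 10% CG the drd3-3 library of gp5 (5.53%) sits near the band and that of gp6 (14.2%) well above it; at 80 to 100% CG both (20.2% and 15.8%) are above it.

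CHH methylation that depends on Pol V is lost in nrpe1. Where CHH methylation was at least 10 percentage points lower in nrpe1 leaves than in Col-0 leaves (12745 windows), 25.9% (gp5) and 38.0% (gp6) had a read in drd3-3, against 78.7% and 74.9% in Col-0. Where the loss was under 2 points (86881 windows), the drd3-3 shares were 14.8% and 10.2%, against 24.9% and 21.3% in Col-0. The first share divided by the second was 1.76 and 3.73 in drd3-3, 3.15 and 3.52 in Col-0, 4.74 and 5.14 in dms5-1, and 5.60 to 8.41 in nrpe1, so both drd3-3 and both dms5-1 libraries lay under every nrpe1 library (exact permutation p = 0.0476 for drd3-3 against nrpe1, adjusted 0.0595 over 5 such ratios). Relative to Col-0, counts in drd3-3 were 26.9% and 26.9% where little CHH methylation was lost and 8.47% and 15% where much was lost.

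Reads of drd3-3 were also found outside the RdDM list where DNA was methylated. Among background windows with at least 20% CHG methylation (5509 windows), 9.84% and 5.80% had a read in drd3-3, against 0.671% to 1.54% in nrpe1, 0.817% and 0.761% in dms5-1, and 8.41% and 7.04% in Col-0. Both drd3-3 libraries were above all 5 nrpe1 libraries. Background windows with under 5% CHG methylation had a read in 7.52% and 5.71% of cases in drd3-3 and 6.60% to 8.91% in nrpe1, which overlap. The ratio of these shares was 1.31 and 1.01 in drd3-3, 1.64 and 1.37 in Col-0 and 0.0762 to 0.196 in nrpe1 (exact permutation p = 0.0476, adjusted 0.0595). Methylated non-RdDM windows (at least 20% CHG, 1975 windows) had reads in 16.5% and 14.7% of cases in drd3-3 and 2.78% to 10.8% in nrpe1. Among the 46 groups of windows compared in this way the exact p was 0.0476 in 39, and no adjusted p fell under 0.0562. These groups overlap, since the same RdDM windows were divided in several ways in the same libraries, so the 39 are not separate results.

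Along the chromosomes, the signal left in drd3-3 was largest relative to Col-0 in bins where RdDM windows are dense. Of 121 bins of 1 Mb, 24 had at least 40% of their windows in the RdDM class and are called dense. In dense bins drd3-3 of gp5 reached a median of 32.9% of the Col-0 count (11.0% to 58.4% between bins), and drd3-3 of gp6 30.8% (16.0% to 48.2%). In the other 97 bins the medians were 5.92% and 13.6%. The nrpe1 medians were 1.45% and 3.05% in dense bins and 1.22% and 2.09% elsewhere. The highest level was in the bin from 3 to 4 Mb of chromosome 2, with 58.4% and 48.2% of Col-0 in drd3-3 against 4.40% and 8.73% in nrpe1. At equal depth, the share of RdDM windows with a read in dense bins divided by that elsewhere was 1.08 and 0.621 in drd3-3, 0.431 to 0.532 in nrpe1, 0.442 and 0.430 in Col-0 and 0.641 and 0.546 in dms5-1. Both drd3-3 ratios were above all 5 nrpe1 ratios (exact permutation p = 0.0476, adjusted 0.0595). Both dms5-1 ratios were also above them, so this position is not particular to drd3-3.

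These bins were also tested with edgeR's quasi-likelihood test on RdDM counts without background-prone windows, a test added after the values had been seen. The windows left out were chosen by the 3 nrpe1 libraries outside gp5 and gp6, which form a separate group in this fit but enter its estimate of the spread. Of the RdDM windows read in both libraries, 368 of 1223 in nrpe1 and 381 of 7596 in drd3-3 were background-prone. Leaving them out thus takes a larger part of the windows read in nrpe1, and the calls hold for the counts so reduced only. Counts were higher in drd3-3 than in nrpe1 of the same tags in 98 of 121 bins (81.0%), and lower in 0, with 102 higher and 0 lower at an unadjusted p under 0.05. All 24 dense bins were called, with log2 differences of 2.30 to 4.22, and 74 of the other 97, where estimates ran from 1.19 to 3.39. DESeq2 called 110 bins higher (90.9%) and 0 lower, and scaling to background counts gave 118 (97.5%). The count was 0 without drd3-3 of gp5, without nrpe1 of gp5 or without nrpe1 of gp6, each of which leaves a genotype with 1 library of these tags, 14 without drd3-3 of gp6 and 24 without nrpe1 of gp3. The highest estimate was in the bin from 3 to 4 Mb of chromosome 4, where drd3-3 had 1.08 and 0.692 counts per window after scaling each library to 1000000 background counts, nrpe1 0.0346 and 0.0452, and Col-0 2.11 and 1.49 (log2 difference 4.22, SE 1.04, edgeR adjusted p = 0.0034).

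**Figure D4:**
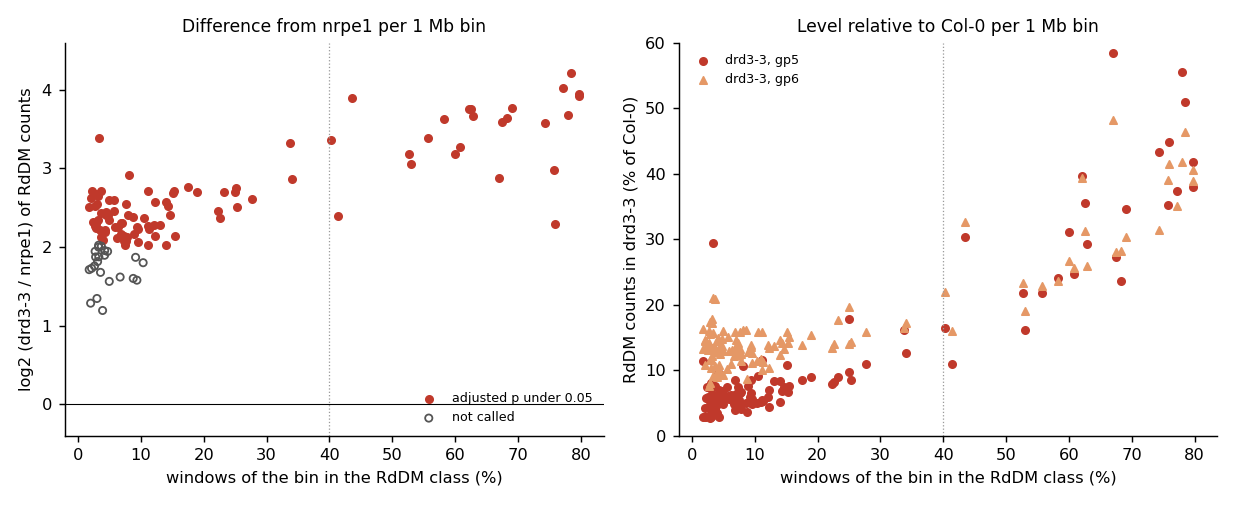
Each point is a 1 Mb bin, placed by the percentage of its windows in the RdDM class (the dotted line marks 40%). Counts in both plots leave out background-prone windows. Left, log2 difference of RdDM counts between drd3-3 and nrpe1 of gp5 and gp6, filled where called (98 of 121); right, drd3-3 counts as a percentage of Col-0 in each tag, with medians of 32.9% and 30.8% in dense bins and 5.92% and 13.6% elsewhere.

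The drd3-3 libraries did not share 1 profile along the chromosomes. Across the 121 bins, counts per RdDM window of drd3-3 in gp5 and gp6 had a Spearman rho of -0.07, against 0.98 for Col-0 of the same tags. The rank correlation of counts per RdDM window with the RdDM density of the bin was positive in drd3-3 of gp5 (rho 0.38) and negative in drd3-3 of gp6 (-0.62), in Col-0 (-0.81 and -0.78) and in nrpe1 (-0.67 and -0.59). These values describe bins that share library and depth and carry no test. In single regions chosen for at least 300 Col-0 counts in the other tags, the median level outside dense bins was 1.35% of Col-0 in drd3-3 of gp5 and 11.0% in drd3-3 of gp6, and within dense bins 14.3% and 19%. Outside dense bins 1952 of 3954 such regions had no read in drd3-3 of gp5 and 876 none in drd3-3 of gp6.

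The chromosomes were alike at coarse scale. At equal depth 15.8% to 18.3% of RdDM windows had a read in drd3-3 of gp5 on chromosomes 1 to 5 and 14.1% to 16.5% in drd3-3 of gp6. On each chromosome both were above all 5 nrpe1 libraries. By annotation, RdDM windows in pseudogenes, which in this annotation include many transposon remnants, had reads in 16.2% and 9.79% of cases in drd3-3 against 0.969% and 1.3% in nrpe1. There drd3-3 counts were 37.4% and 31.9% of Col-0. RdDM windows outside genes gave 17.0% and 18.3% of windows with a read, at 12.3% and 17.7% of the Col-0 count.

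Summing adjoining RdDM windows gave 22161 regions, which were tested with edgeR between drd3-3 and nrpe1 of gp5 and gp6, with the 3 other nrpe1 libraries as a separate group for the spread. Of 1174 regions with enough counts, 545 were higher in drd3-3 (46.4%) and 1 was lower (0.0852%). Only 215 regions would have passed the filter in nrpe1 alone, so most would not have been tested without the reads of drd3-3, and the share called says little about RdDM regions at large. When regions were instead admitted by their Col-0 counts in the other tags, 23 of 5765 were higher (0.399%) and 0 lower, with 944 higher and 1 lower at an unadjusted p under 0.05. DESeq2 called 293 higher (31.0%) and 1 lower (0.106%). The 545 calls fell to 0 without drd3-3 of gp5, 30 without drd3-3 of gp6, and 0 without nrpe1 of gp5 or of gp6. Of the 545, 379 (69.5%) lay in dense bins, against 63.1% of the regions tested and 50.5% of all regions. Their median counts were 17 and 13 in drd3-3, 0 and 0 in nrpe1 of the same tags and 67 and 34 in Col-0.

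The 10 regions with the smallest adjusted p (each 0.0032, edgeR) all lay in dense bins and had CG methylation of 65.4% to 88.4%. In TAIR10 coordinates, the first runs from 5560051 to 5561450 on chromosome 4, outside annotated genes. It had 85 and 66 counts in drd3-3, 0 and 0 in nrpe1 of the same tags, 15, 2 and 2 in the other nrpe1 libraries, 115 and 74 in Col-0, and 0 and 0 in dms5-1. Both drd3-3 libraries were above every nrpe1 library. Against nrpe1 of the same tags drd3-3 was at least 70.6-fold higher, taking 3 counts over both those nrpe1 libraries as the floor and scaling to library totals. This floor covers counting error in those libraries only. It is no bound for nrpe1 at large, since the untagged nrpe1 library had 15 counts in this region. CHH methylation there was 16.7% in Col-0 and 1.29% in nrpe1 leaves.

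On chromosome 2, from 2521051 to 2522000, drd3-3 had 63 and 40 counts, against 28 and 12 in the deeper Col-0 libraries and 0 and 0 in nrpe1 of the same tags (at least 48.2-fold higher than nrpe1 of these tags, by the same floor). The longest of the 10 regions, from 12602701 to 12613400 on chromosome 3, holds pseudogene sequence. It had 117 and 56 counts in drd3-3, 1 and 0 in nrpe1 and 244 and 117 in Col-0, whose libraries were deeper. A region on chromosome 3 from 12133801 to 12134600 had 50 and 26 counts in drd3-3, 22 and 10 in Col-0 and 0 and 0 in nrpe1. The 10 regions together ranged from 41 to 117 counts in drd3-3 of gp5 and from 26 to 66 in drd3-3 of gp6. In dms5-1 they had 0 to 5 counts.

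At the level of single windows, 1 of 4523 tested was called higher (0.0221%) and 0 lower, while 305 were higher and 39 lower at an unadjusted p under 0.05. DESeq2 called 75 higher (1.66%) and 2 lower (0.0443%). The window called by edgeR, from 5897101 to 5897300 on chromosome 4, is an RdDM window outside annotated genes with 44 and 46 counts in drd3-3, 0 and 0 in nrpe1 of the same tags, 3, 6 and 2 in the other nrpe1 libraries and 34 and 14 in Col-0 (adjusted p = 0.048, edgeR). It was not called with scaling to background counts, without drd3-3 of gp5, without nrpe1 of gp5 or without nrpe1 of gp6, and the same test made 1 false call among simulated windows at this size. The counts of calls in the other leave-one-out fits ran up to 128.

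The region that was lower in drd3-3 runs from 12083701 to 12084050 on chromosome 1, over a snoRNA gene, AT1G06667. It had 27 and 59 counts in drd3-3, 423 and 231 in nrpe1 of the same tags, 416 to 1242 in the other nrpe1 libraries, 576 and 327 in Col-0, and 286 and 569 in dms5-1. Both drd3-3 libraries were lower than every other library listed (log2 difference -2.57, SE 1.12, adjusted p = 0.047, edgeR). snoRNAs guide the modification of ribosomal RNA. The region holds a background-prone window, and it was not called with scaling to background counts, with a count minimum of 3, or without any 1 of the 4 libraries compared.

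The regions with the most reads in drd3-3 were not those that separated it from nrpe1. By the lower of the 2 drd3-3 values scaled to background counts, the first 10 RdDM regions all held background-prone windows, lay in dense bins and had edgeR log2 differences from nrpe1 of -0.56 to 0.44 with adjusted p of 0.636 to 0.996. The first, from 11184301 to 11189450 on chromosome 5, had 4478 and 4445 counts in drd3-3, 8396 and 3511 in nrpe1, 6642 and 7015 in Col-0 and 2525 and 6030 in dms5-1, so the genotypes overlapped. The same region also had the highest Col-0 count, and the 5 regions of highest Col-0 count were the first 5 of the drd3-3 list. The first 5 non-RdDM runs likewise had 137 to 578 counts in a drd3-3 library and 129 to 782 in an nrpe1 library of the same tags. The first of these, from 7104151 to 7105100 on chromosome 3, had 578 and 307 counts in drd3-3 and 638 and 278 in nrpe1.

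Against Col-0 of gp5 and gp6, edgeR called 5044 of 11290 RdDM regions lower in drd3-3 (44.7%) and 100 higher (0.886%). With scaling to background counts 8148 were lower (72.2%) and 11 higher (0.0974%), and DESeq2 called 8373 lower (74.2%) and 6 higher (0.0531%). Among the regions chosen by Col-0 counts 3603 were lower (62.5%) and 41 higher (0.711%), and, among all those tested, without drd3-3 of gp5 1776 were lower and 50 higher. Without Col-0 of gp5 2972 were lower and 20 higher, and without Col-0 of gp6 28 were higher. With the tag as a block 1089 were lower and 0 higher, so no region was called above Col-0 in that fit. This comparison uses the same drd3-3 libraries as that with nrpe1. The 11 regions above Col-0 with background scaling included 2 of the regions named above for their small adjusted p against nrpe1. These are the chromosome 2 region and the chromosome 3 region in which drd3-3 had more counts than Col-0. The first, from 16660501 to 16660700 on chromosome 5, is a single window with 5.36% CG methylation over MIR319b, a microRNA gene whose product acts on TCP transcription factors. It had 12 and 7 counts in drd3-3, 1 and 0 in Col-0, and 0 in all 5 nrpe1 libraries and both dms5-1 libraries. Another, from 2224801 to 2226050 on chromosome 2, had 115 and 42 counts in drd3-3, 29 and 33 in Col-0 and 1 and 0 in nrpe1 of the same tags.

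Gene bodies were tested in the same way, with windows assigned to a gene by their midpoint. Of 6092 tested, 23 were higher in drd3-3 (0.378%) and 0 lower, with 471 higher and 119 lower at an unadjusted p under 0.05, and DESeq2 called 46 higher (0.894%) and 0 lower. With scaling to background counts 40 were higher (0.657%). The count was 0 without drd3-3 of gp5 or nrpe1 of gp5, 2 without nrpe1 of gp6, 43 without drd3-3 of gp6, 46 without nrpe1 of gp3 and 65 without nrpe1 of gp4. By annotation the 23 comprised 9 protein-coding genes, 10 pseudogenes and 4 non-coding RNA genes. In 19 of them every window belonged to the RdDM class, and in 2 (ATMYC1 and MIR168a) none did. Of the 6092 gene bodies tested 5089 would have passed the filter in nrpe1 alone, but only 2 of the 23 called would have, so the position of drd3-3 above nrpe1 in them is what the test chose.

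**Figure D5:**
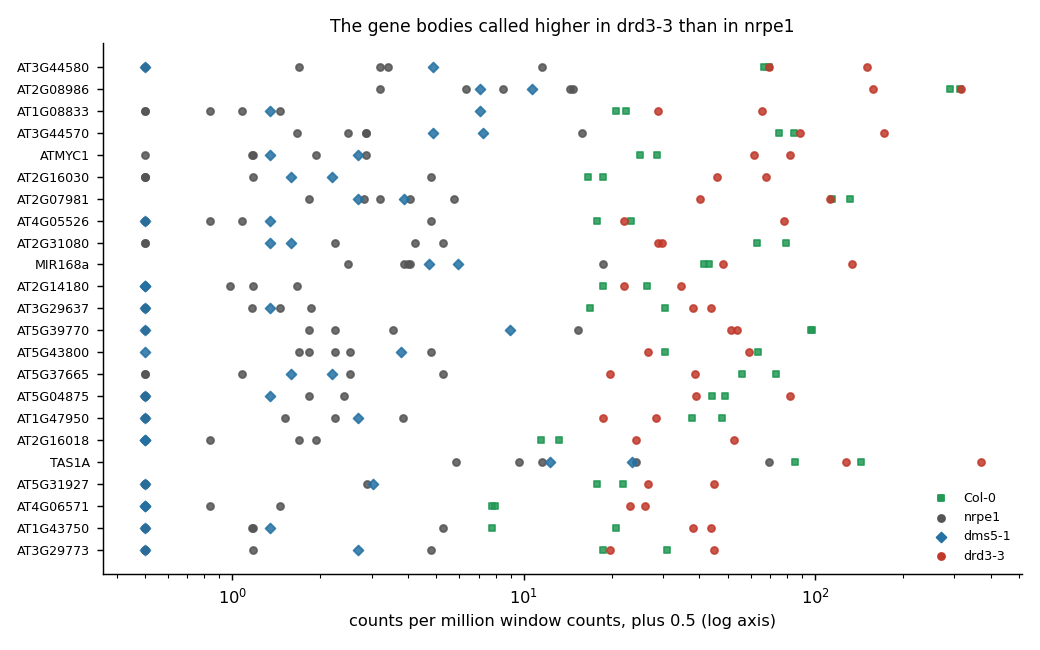
CPM plus 0.5 (log axis) for the 23 gene bodies called higher in drd3-3; each point is 1 library of drd3-3 (2), nrpe1 (5), dms5-1 (2) or Col-0 (gp5 and gp6). In AT3G44580, at the top, drd3-3 had 118 and 61 counts, Col-0 120 and 73, and nrpe1 0 to 23.

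The gene body with the smallest adjusted p was AT3G44580, a protein-coding annotation of 10 RdDM windows. It had 118 and 61 counts in drd3-3, 0 and 1 in nrpe1 of the same tags, 23, 8 and 5 in the other nrpe1 libraries and 120 and 73 in Col-0 (log2 difference 7.59, SE 1.13, edgeR adjusted p = 0.0088). Its neighbour on chromosome 3, AT3G44570, had 135 and 78 counts in drd3-3, 3 and 2 in nrpe1 and 146 and 82 in Col-0. In both genes drd3-3 lay above every nrpe1 library, with counts close to those of the deeper Col-0 libraries. AT2G08986 and AT2G07981, on chromosome 2, had 249 and 139 and 88 and 35 counts in drd3-3, against 12 and 12 and 2 and 3 in nrpe1 and 503 and 344 and 197 and 144 in Col-0. In these genes, which also consist of RdDM windows alone, the drd3-3 counts lay between those of nrpe1 and of the deeper Col-0 libraries, and relative to library totals drd3-3 of gp5 was near Col-0, as the plot of the 23 gene bodies shows.

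Some RdDM gene bodies had more counts, relative to the library total, in drd3-3 than in Col-0. AT1G08833, a long non-coding RNA gene, had 51 and 25 counts in drd3-3, 0 and 0 in nrpe1 of the same tags and 35 and 24 in Col-0 (at least 35.6-fold higher than nrpe1 of these tags, by the same floor as for regions). AT2G16030 had 53 and 40 counts in drd3-3, 0 and 0 in nrpe1 of the same tags and 28 and 20 in Col-0 (at least 43.5-fold higher than nrpe1 of these tags, by that floor). Per total count both drd3-3 libraries were above both Col-0 libraries in 11 of the 23 genes, which were chosen for high drd3-3 counts. This comparison was made without a test and not over all gene bodies tested. Photosynthesis genes were also higher on this scale in drd3-3 (summed 2671 and 2464 CPM) than in Col-0 of the same tags (1280 and 1115). A value above Col-0 per total count is therefore not particular to these genes. The pseudogene AT2G31080 was of the opposite kind, with 23 and 25 counts in drd3-3 and 137 and 69 in Col-0. Copies of repeats can share reads, and the labels do not say how reads with several positions were counted.

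ATMYC1 and MIR168a held no RdDM window, and of the 7 windows of TAS1A 4 were RdDM windows. ATMYC1 (AT4G00480), a basic helix-loop-helix transcription factor gene, had 48 and 72 counts in drd3-3, 1 and 2 in nrpe1 of the same tags, 3, 2 and 0 in the other nrpe1 libraries, 2 and 1 in dms5-1 and 49 and 27 in Col-0. Both drd3-3 libraries were above all nrpe1 libraries, and the ratio to nrpe1 per total count was 56.1 (counting interval 18.8 to 276; edgeR adjusted p = 0.0205). MIR168a, whose microRNA acts on the transcript of ARGONAUTE1, had 105 and 42 counts in drd3-3, 3 and 3 in nrpe1 of the same tags, 38 in the untagged nrpe1 library and 74 and 45 in Col-0 (log2 difference 4.92, SE 0.96, edgeR adjusted p = 0.0267). TAS1A, a gene for trans-acting small interfering RNAs, had 290 and 112 counts in drd3-3, 8 and 20 in nrpe1 of the same tags, 144 in the untagged nrpe1 library and 249 and 93 in Col-0 (4.07, SE 0.87, edgeR adjusted p = 0.0411). The windows carry no strand, so sense and antisense reads of these genes cannot be told apart.

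No gene body was called lower. The smallest unadjusted p values among genes with fewer counts in drd3-3 belonged to AT5G11560, SUC2 and AT1G15140. SUC2 (AT1G22710), the sucrose carrier of the phloem, had 0 and 0 counts in drd3-3, 16 and 8 in nrpe1 of the same tags and 11 and 7 in Col-0 (edgeR adjusted p = 0.131). AT5G11560 had 0 and 0 against 25 and 6 (adjusted p = 0.116, edgeR) and AT1G15140 0 and 0 against 13 and 12 (adjusted p = 0.143, edgeR). At these depths such counts were few, and none of the 3 passed the test. Among simulated gene bodies the same test recovered only 22% of those with a log2 decrease of 4.

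Genes known as RdDM targets, a list of 8, had a lower summed level over their gene bodies in drd3-3 than in Col-0. This level was 29.3 and 22.7 CPM in drd3-3, 13.2 to 22.9 in nrpe1 and 141 and 105 in Col-0, so drd3-3 of gp6 lay within the nrpe1 range. Promoters outside the gene bodies were not counted. All 6 windows of QQS were RdDM windows, but only 2 of 46 in ROS1 and 1 of 13 in SDC, so the level is no measure of signal at the silenced elements. FWA, a homeobox gene that RdDM silences through repeats in its promoter, had 0 and 0 counts in drd3-3 and 30 and 23 in Col-0. ROS1, the DNA demethylase whose expression depends on methylation of its own promoter, had 1 and 0 against 52 and 33 in Col-0. SDC, an F-box gene silenced by methylation, had 6 and 4 counts in drd3-3, 0 and 0 in nrpe1 of the same tags and 17 and 10 in Col-0. Per total count this was 7.63 and 4.53 CPM in drd3-3 against 9.79 and 9.10 in Col-0. Only IBM1, a histone demethylase gene, had enough counts for the test, with 8 and 9 in drd3-3 and 11 and 6 in nrpe1 (log2 difference 0.36, edgeR adjusted p = 0.972). Of 21 genes of the RdDM pathway 4 were tested, with 0 called in either direction and a median log2 difference of -0.30, against 0.19 over all 6092 gene bodies. Of the 20 photosynthesis genes all were tested, and of 11 housekeeping genes 9, and 0 were called, with medians of 0.04 and -0.29.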

How the data were processed

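Window counts were deposited by the authors as 1 table of raw counts of 5′ RNA ends, with methylation as an average fraction per window over bisulfite replicates. The submitters' processing notes list Bismark, Bowtie2, cutadapt, UMI-tools and, as the build, TAIR10, without roles or versions. The 3 class lists were deposited with the table. By the labels they were made from Col-0 and nrpe1 libraries without a tag, of gp3 and of gp4, and the class values of these nrpe1 libraries are not independent of the lists.

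Ribosomal DNA windows (chromosome 2 below 12 kb, chromosome 3 from 14.19 to 14.21 Mb) were kept in totals only. Summary values were compared by exact permutation tests on log2 values. Windows, RdDM regions, gene bodies and bins were tested with edgeR 4.0.16 in R 4.3.3 (quasi-likelihood F-test, TMM factors from all windows, filterByExpr with a count minimum of 10, Benjamini-Hochberg adjustment, threshold 0.05), with DESeq2 1.42.0 as an alternative. Wilson intervals and the floor of 3 counts cover counting error only. Gene names came from RefSeq's TAIR10.1 table. Features were named by adjusted p (the 10 smallest in each direction, or the 3 smallest p where none passed) and by the lower of the drd3-3 values (10 RdDM regions, 5 non-RdDM runs). MIR168a, TAS1A and the regions above Col-0 were chosen after their values were seen. Members, lists and rules were chosen with earlier results of these data known.

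On simulated data with 200 changed features, a log2 increase of 4 in drd3-3 was recovered in 76% of windows (4523 tested), 36% of regions (1174) and 84% of gene bodies (6092). An increase of 2 was recovered in 6%, 2% and 12%. Decreases were recovered less often, at 26%, 8% and 22% for a log2 decrease of 4 and 4%, 0% and 10% for a decrease of 2. The absence of lower calls therefore says little. Chi-square per degree of freedom between replicates was 4.71 for drd3-3 and 6.28 or more for nrpe1, so none was taken as a duplicate.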

Additional observations from a re-analysis of the deposited data

How the results depend on the processing

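Over 224 recomputed values, the higher share of RdDM windows with a read at equal depth and the flatter Col-0 gradient of drd3-3 kept their direction under each alternative. Leaving out 1 library gave log2 differences of 2.32 to 2.72 and -4.15 to -3.34, with p of 0.0667 to 0.167, since fewer splits remain. The other ranges without 1 library were 0.76 to 1.08 for the RdDM share, 0.93 to 1.31 for RdDM per background count, -0.017 to 0.27 for the non-RdDM share (negative without nrpe1 of gp5), 0.14 to 0.36 for non-RdDM per background count and -2.93 to -2.61 against Col-0 (-2.90 without drd3-3 of gp5 and -2.61 without drd3-3 of gp6). Without 1 library, calls higher and lower ranged from 0 to 128 and 0 to 3 (windows), 0 to 659 and 0 to 1 (regions), 0 to 65 and 0 (gene bodies), 20 to 72 and 1776 to 5679 (regions against Col-0) and 0 to 118 and 0 (1 Mb bins).

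With the highest windows capped, the log2 differences were 1.55 (RdDM share), 1.96 (RdDM per background count) and 0.29 (non-RdDM per background count), each with an exact p of 0.0476, and -0.092 (non-RdDM share). Without background-prone windows, which were chosen by 3 of the 5 nrpe1 libraries, they were 2.26, 2.99 and, for the non-RdDM share, -0.39, with no test. The retained percentage was 12.1 and 14.8 with rDNA, 12.1 and 14.5 capped, and 14.1 in gp6 without background-prone windows.

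Calls higher and lower for windows were 0 higher with background scaling, 77 and 2 with a count minimum of 3, 75 and 2 with DESeq2, 231 and 2 with all 5 nrpe1 libraries as 1 group, and 893 and 1 with 19 libraries of 6 genotypes. For regions, in the same order, they were 0 lower, 56 and 0, 293 higher, 875 and 5, and 3533 and 5, with 23 and 0 when chosen by Col-0 counts and 0 lower without background-prone windows. For gene bodies they were 40 higher, 61 and 1, 46 higher, 237 and 2, and 1451 and 70. Against Col-0 they were 21 and 8039 with library totals, 11 and 8148 with background scaling, 6 and 8373 with DESeq2, and 41 higher when chosen by Col-0 counts. The causes were not tested. The Col-0 filter and the 1 Mb bins were chosen after seeing the data.

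The tags share a number of pairs too small to test for pairing (correlation of deviations -0.0786 for nrpe1 and -0.136 for Col-0, over 3743 windows), so the tags are not taken as pairs. With the replicate block, calls were 156 and 15 (windows), 249 higher (regions), 379 and 20 (gene bodies), 0 and 1089 (regions against Col-0) and 120 bins higher. In the same 8 libraries without the block they were 248 and 36, 834 higher, and 572 and 46.

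Depth limits single features: most RdDM windows had no read in drd3-3, and neither drd3-3 library exceeded 359310 counts outside ribosomal DNA.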
